A study of Mus musculus with 6 samples.

Results

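The genes described here are 10 transcription factors and cofactors of blood stem and progenitor cells: Gata1, Gata2, Tal1, Lyl1, Lmo2, Zfpm1, Fli1, Erg, Gfi1b and Myb. They were chosen by name as the GATA, SCL complex and ETS regulators together with Gfi1b and Myb, by a rule that uses no measured value although earlier results of these data were known, and are 10 of the 53618 named rows of the table. All 10 were among the 12298 genes that passed the filter on low values. Their RNA was measured in leukemia cells from the spleens of mice carrying AE9a, a truncated AML1-ETO fusion that drives acute myeloid leukemia. The cells were sorted as GFP+Lin-c-Kit+, where GFP marks the AE9a retrovirus, Lin- means without the surface markers of mature blood lineages and c-Kit is the stem cell factor receptor.

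One group of 3 mice had received oil and is labelled Usp18+/f, with 1 floxed and 1 wild-type Usp18 allele. The other group of 3 mice had received tamoxifen and is labelled Usp18+/Δ, in which Cre is meant to have deleted the floxed allele. Every leukemia cell in both groups carried AE9a and UBCER-Cre, a tamoxifen-activated Cre under a promoter active in all tissues, and the cells came from mouse fetal liver. They had been passed through earlier recipients, while the recipients analysed here were irradiated wild-type C57BL/6 mice that lack the Cre. Cells were collected on day 3 after the first injection, and each mouse gave 1 library, so 6 mice were compared. Oil-treated mice had not received tamoxifen, so an effect of the drug itself and an effect of the deletion cannot be told apart. The comparison asks which transcripts differ when 1 Usp18 allele is removed from established leukemia.

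GATA1 and GATA2 are zinc finger proteins that bind GATA-containing DNA, and GATA1 replaces GATA2 at many sites as progenitors mature into red cells, while mast cells keep GATA2. TAL1 (also called SCL) and its relative LYL1 are basic helix-loop-helix proteins that pair with E proteins on E-box DNA, and LMO2 and LDB1 bridge them to GATA factors in 1 complex. FLI1 and ERG are ETS factors that share many stem cell enhancers with this complex and with RUNX1, the DNA-binding part of which is kept in AML1-ETO fusions. FOG1, the product of Zfpm1, is the cofactor of GATA1, GFI1B is a zinc finger repressor of red cell and platelet precursors, and MYB sustains the growth of progenitors and of many myeloid leukemias.

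One library stood apart and bore on every gene below. Recovered reads numbered 19172471 in tamoxifen 1 and 21488695 to 23785143 in the other 5 libraries. Mitochondrial transcripts took 0.00923% of the reads in tamoxifen 1 and 1.01% to 1.56% elsewhere. In tamoxifen 1 the deviation of a protein-coding gene from its median over the other 5 libraries followed the GC content of its transcript, with a Spearman correlation of 0.70 across 10807 genes, against -0.22 to 0.036 in the other libraries, where each was set against its own remaining 5. These points share 1 library and its composition, so this is a description. The RNA of the targeted gene was not lower in the libraries labelled tamoxifen. Usp18 had 217, 214 and 176 normalised counts in the oil libraries and 477, 329 and 284 in the tamoxifen libraries, a log2 fold change of 0.81 ± 0.25 (SE, n = 3 and 3, limma adjusted p = 0.666), and 0.60 without tamoxifen 1 (limma adjusted p = 0.181). These counts cover the whole gene and do not measure the deletion of 1 allele. For these reasons the groups are named only as the libraries are labelled. Each gene's limma log2 fold change over the 6 libraries is given with its value without tamoxifen 1.

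Values are normalised read counts: the reads on a gene, scaled by a single size factor in each library. Per kilobase of exon, Gata1 was the highest of the 10 genes in the oil libraries at 3064 ± 74.9 (SD, n = 3) normalised counts. Tal1 followed at 1924 ± 41.5, Gata2 at 1865 ± 194 and Lmo2 at 1702 ± 95.6 per kilobase. The 3 oil values of Tal1 overlapped those of Gata2, and those of Gata2 overlapped those of Lmo2, so these neighbours in the order did not differ beyond their spread. Gfi1b stood at 1226 ± 62.9 and Lyl1 at 965 ± 46.5 per kilobase, each apart from its neighbours. Fli1 at 660 ± 49.5, Myb at 650 ± 85.9 and Zfpm1 at 511 ± 95.1 per kilobase overlapped in turn, and Erg was lowest at 250.1 ± 26.1. Among all tested genes with a length, Gata1 ranked at the 97.7th percentile of the oil mean per kilobase and Erg at the 63.8th, so all 10 lay in the upper part of the range. The order depended on the gene model. With the length of the longest transcript in place of all exons, Myb moved from rank 8 to rank 5 at 1572 per kilobase, and Gata2 from rank 3 to rank 2 at 2819.

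**Figure D1:**
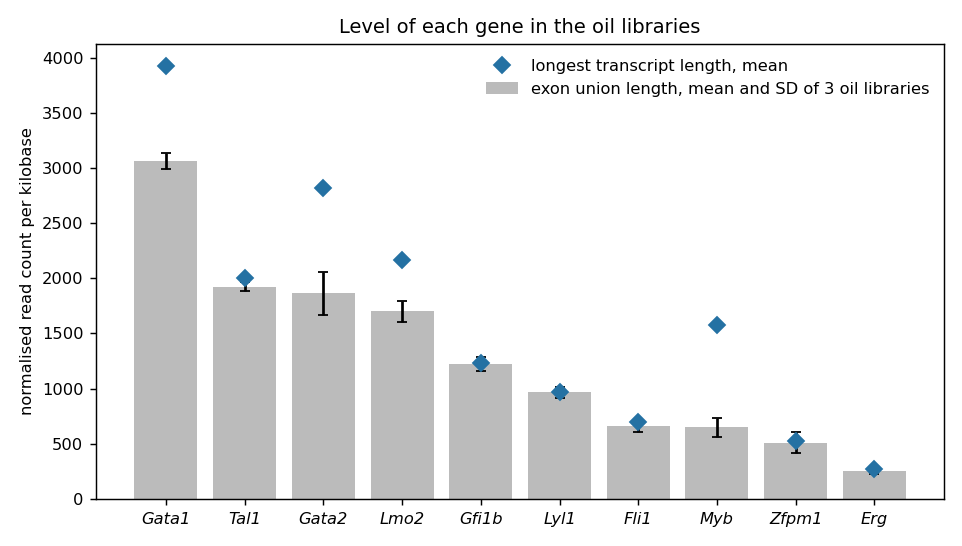
Normalised read count per kilobase for the 10 genes in the oil libraries, as bars for the mean and error bars for the SD of 3 libraries with all exons as length, and diamonds for the mean with the longest transcript as length. Gata1 stands highest at 3064 and Erg lowest at 250.1 per kilobase, and the diamond for Myb at 1572 shows how far its place depends on the transcript length used.

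DNA in front of RefSeq start sites is shown for 4 members. GATA and ETS factors, which are members themselves, have short recognition words that can be looked up there. RefSeq start sites on GRCm38.p6 matched 8 of the 10 members with 12 windows, with no entry for Lmo2 and Fli1, and the 250 bases before each start were searched on both strands. The GATA word was AGATAA or TGATAA, and 3 of the 12 windows held it, against 16.6% of all 32851 windows. The first Tal1 window and the Gfi1b window were 2 of these, and they are printed with the GATA letters in capitals. The third was 1 of the 3 Erg windows.

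Tal1, chr4:115056176-115056425, plus strand: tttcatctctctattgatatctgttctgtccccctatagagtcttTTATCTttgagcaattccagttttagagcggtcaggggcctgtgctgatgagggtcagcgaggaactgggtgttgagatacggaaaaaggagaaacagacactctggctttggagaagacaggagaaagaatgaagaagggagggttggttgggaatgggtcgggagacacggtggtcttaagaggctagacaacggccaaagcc
Gfi1b, chr2:28621983-28622232, minus strand: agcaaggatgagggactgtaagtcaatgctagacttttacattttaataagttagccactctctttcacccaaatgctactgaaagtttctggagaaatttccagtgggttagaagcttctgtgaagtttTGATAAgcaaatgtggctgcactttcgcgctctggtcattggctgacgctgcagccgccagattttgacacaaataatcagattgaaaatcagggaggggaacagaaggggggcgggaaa

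In Tal1 the word lies on the opposite strand and begins 205 bases before the start. In Gfi1b it lies on the strand of the gene, 120 bases before the start, and CAAATG, which fits the E-box pattern CANNTG, begins 113 bases before the start without overlapping it. The ETS words searched were CCGGAA with its purine-rich core GGAA, the variant AGGAAG and the variant AGGAAA, and 5 of the 12 windows held at least 1 of them, against 53.7% of all windows. Lyl1 and Gata1 held 2 each and are printed with those letters in capitals.

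Lyl1, chr8:84701207-84701456, plus strand: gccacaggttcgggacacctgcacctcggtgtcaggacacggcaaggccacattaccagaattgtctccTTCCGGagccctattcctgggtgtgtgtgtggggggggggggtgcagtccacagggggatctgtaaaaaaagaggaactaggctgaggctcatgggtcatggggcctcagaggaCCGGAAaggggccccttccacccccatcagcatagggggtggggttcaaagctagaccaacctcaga
Gata1, chrX:7967911-7968160, minus strand: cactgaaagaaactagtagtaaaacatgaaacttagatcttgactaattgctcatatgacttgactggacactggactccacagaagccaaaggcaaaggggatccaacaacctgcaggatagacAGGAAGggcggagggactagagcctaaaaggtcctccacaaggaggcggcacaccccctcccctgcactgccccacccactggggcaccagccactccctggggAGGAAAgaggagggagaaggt

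In Lyl1 CCGGAA begins 67 bases before the start, and a second copy 181 bases before it reads on the opposite strand. In Gata1 AGGAAG begins 125 and AGGAAA 21 bases before the start. That RefSeq start lies inside the Gata1 gene span given below, so this window is not in front of the whole gene. E-box letters CANNTG were in 4 of the 12 member windows, against 66.2% of all windows. The RUNX words TGTGGT and TGCGGT were in 0 of the 12, against 18.6%, and the interferon-response pattern GAAANNGAA was in 1, an Erg window, against 7.13%. A match here is a run of letters, and a window without one says nothing about the factor.

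In limma, 0 of the 10 members were called at an adjusted p of 0.05, where the background over the 12298 tested genes was 0%. The smallest adjusted p among them was 0.666. At an unadjusted p under 0.05, 0 of the 10 passed in limma, against 4.47% of all tested genes. With edgeR on recovered reads 0 of the 10 passed at an adjusted p of 0.05, against 0% of all genes, and 0 at the unadjusted limit, against 4.85%. With DESeq2 on recovered reads 0 of the 10 passed after adjustment, against 0.45% of all genes with an adjusted p, and 1, Zfpm1, at the unadjusted limit, against 3.65%. A p that misses the threshold does not show that the levels were equal, so intervals are given for each gene below. In these bulk libraries, fewer cells of a type and less RNA per cell cannot be told apart.

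Gata1 (ENSMUSG00000031162.14, chromosome X, 7959260 to 7978071, minus strand, GRCm38) had 7512, 7269 and 7626 normalised counts in oil 1, 2 and 3. In tamoxifen 1, 2 and 3 it had 10017, 7028 and 6453. Tamoxifen 1 was the highest of the 6 libraries, and tamoxifen 2 and 3 were the lowest, so the groups overlapped with the oil libraries in between. The means were 7469 ± 183 and 7833 ± 1914 (SD, n = 3 each), a log2 fold change of 0.042 with a 95% limma interval of -0.42 to 0.50 (adjusted p = 0.917), and the sign turned to -0.0078 when libraries were scaled by their total counts. Without tamoxifen 1 the log2 fold change was -0.15 with an interval of -0.32 to 0.021 (limma adjusted p = 0.470).

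Gata2 (ENSMUSG00000015053.14, chromosome 6, 88193891 to 88207032, plus strand) had 10484, 10840.1 and 8872 normalised counts in the oil libraries. The tamoxifen libraries had 13302, 10153.5 and 9492. Tamoxifen 1 was again the highest, while tamoxifen 2 and 3 lay inside the range of the oil libraries. Means of 10065.5 ± 1049 and 10983 ± 2036 (SD, n = 3 each) gave a log2 fold change of 0.12, interval -0.32 to 0.55 (limma adjusted p = 0.754). It was -0.031 without tamoxifen 1, interval -0.25 to 0.19 (limma adjusted p = 0.935), so a change of more than 0.25 in either direction lay outside that interval.

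Zfpm1 (ENSMUSG00000049577.15, chromosome 8, 122282141 to 122337251, plus strand) varied most of the 10. It had 2172, 1638 and 1559.9 normalised counts in the oil libraries and 7169.9, 1974 and 2515 in the tamoxifen libraries. Tamoxifen 1 stood at 3.63 times the median of the other 5 libraries, tamoxifen 3 was next, and tamoxifen 2 lay below oil 1, so the groups overlapped. The means were 1790.02 ± 333 and 3886 ± 2856 (SD, n = 3 each). In limma the log2 fold change was 0.89, interval -0.24 to 2.03 (adjusted p = 0.666), and in DESeq2 it was 1.12 (adjusted p = 0.695). Leaving out tamoxifen 1 lowered it to 0.33, interval -0.0050 to 0.67 (limma adjusted p = 0.420). Relative to Gata1, whose partner it encodes, Zfpm1 counts were 0.289, 0.225 and 0.205 times those of Gata1 in the oil libraries. The same ratio was 0.716, 0.281 and 0.390 in the tamoxifen libraries, above the oil range in tamoxifen 1 and 3 and inside it in tamoxifen 2.

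Tal1 (ENSMUSG00000028717.12, chromosome 4, 115056426 to 115071755, plus strand) was the steadiest member. Its oil values were 8461, 8227 and 8584 normalised counts, and its tamoxifen values were 11885, 8502 and 8106. Apart from tamoxifen 1 the highest library was 1.06 times the lowest. The means of 8424 ± 182 and 9498 ± 2077 (SD, n = 3 each) gave a log2 fold change of 0.15, interval -0.28 to 0.59 (limma adjusted p = 0.693). Without tamoxifen 1 the difference was -0.021, interval -0.18 to 0.14 (limma adjusted p = 0.940), the narrowest interval of the 10.

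Lyl1 (ENSMUSG00000034041.4, chromosome 8, 84701457 to 84704715, plus strand), the relative of Tal1, had 1829.7, 1667 and 1714 normalised counts in the oil libraries. It had 2991, 1649.8 and 1857 in the tamoxifen libraries. Tamoxifen 1 was the highest, tamoxifen 3 the next and tamoxifen 2 the lowest of the 6, with the oil libraries between the last pair. The log2 fold change was 0.27, interval -0.31 to 0.84 (limma adjusted p = 0.666), from means of 1737 ± 83.7 and 2166 ± 722 (SD, n = 3 each). Without tamoxifen 1 it was 0.012, interval -0.18 to 0.21 (limma adjusted p = 0.972). The annotation places 4 exon bases of Lyl1 on those of Nfix on the other strand. Tal1 counts were 4.62, 4.93 and 5.01 times those of Lyl1 in the oil libraries and 3.97, 5.15 and 4.37 times in the tamoxifen libraries, and these ranges overlapped.

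Lmo2 (ENSMUSG00000032698.15, chromosome 2, 103957986 to 103981878, plus strand), which bridges TAL1 or LYL1 and GATA factors, had 3454, 3759 and 3849 normalised counts in the oil libraries. The tamoxifen libraries had 5799, 3117 and 2833. Tamoxifen 1 lay above all oil libraries and tamoxifen 2 and 3 below all of them. The means of 3687 ± 207 and 3916 ± 1636 (SD, n = 3 each) therefore hardly differed, with a log2 fold change of 0.012, interval -0.66 to 0.69 (limma adjusted p = 0.985), which turned to -0.038 with scaling by total counts. Without tamoxifen 1 the log2 fold change was -0.31, interval -0.50 to -0.12, which did not pass after adjustment in limma (adjusted p = 0.185), DESeq2 (0.0727) or edgeR (0.194). Lmo2 was the 1 member with an unadjusted limma p under 0.05 in that fit, at 0.0042, where 12.1% of all tested genes were under it. Weighting each library by its fit, which gave tamoxifen 1 a weight of 0.0377 and the others 0.956 to 3.37, called Lmo2 lower, with a log2 fold change of -0.34 (limma adjusted p = 0.0320), 1 of 10 members where 6.36% of tested genes were called. Lmo2 counts were 0.408, 0.457 and 0.448 times those of Tal1 in the oil libraries, and 0.488, 0.367 and 0.349 times in the tamoxifen libraries, with tamoxifen 2 and 3 below and tamoxifen 1 above the oil range.

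Fli1 (ENSMUSG00000016087.13, chromosome 9, 32422204 to 32542861, minus strand) had 2431, 2368 and 2105 normalised counts in the oil libraries. It had 849.9, 2446 and 2385 in the tamoxifen libraries. Tamoxifen 1 stood at 0.356 times the median of the other 5, while tamoxifen 2 was the highest library of all. The log2 fold change of -0.43, interval -1.42 to 0.56 (limma adjusted p = 0.667), came from means of 2301 ± 173 and 1894 ± 904 (SD, n = 3 each). It was 0.073 without tamoxifen 1, interval -0.12 to 0.26 (limma adjusted p = 0.770), so the sign rested on that library.

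Erg (ENSMUSG00000040732.20, chromosome 16, 95359169 to 95586593, minus strand), the other ETS factor, had 971, 821 and 809 normalised counts in the oil libraries and 445, 851 and 846 in the tamoxifen libraries. Tamoxifen 1 was the lowest, at 0.526 times the median of the other 5, and tamoxifen 2 and 3 fell inside the oil range. Means of 867 ± 90.3 and 714 ± 233 (SD, n = 3 each) gave a log2 fold change of -0.34, interval -1.02 to 0.34 (limma adjusted p = 0.666). Without tamoxifen 1 the value was -0.026, interval -0.26 to 0.21 (limma adjusted p = 0.948). Fli1 counts were 2.50, 2.88 and 2.60 times those of Erg in the oil libraries and 1.91, 2.88 and 2.82 times in the tamoxifen libraries.

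Gfi1b (ENSMUSG00000026815.14, chromosome 2, 28609450 to 28621982, minus strand) had 2349, 2261 and 2121 normalised counts in the oil libraries. Its tamoxifen values were 3713, 2060.0 and 2277, so tamoxifen 1 was the highest, tamoxifen 2 the lowest and tamoxifen 3 among the oil libraries. From means of 2244 ± 115 and 2683 ± 898 (SD, n = 3 each), the log2 fold change was 0.21, interval -0.36 to 0.78 (limma adjusted p = 0.688). It was -0.050 without tamoxifen 1, interval -0.24 to 0.14 (limma adjusted p = 0.854).

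Myb (ENSMUSG00000019982.15, chromosome 10, 21124935 to 21160984, minus strand) had 6692, 5402 and 5328 normalised counts in the oil libraries. It had 3097, 5188 and 5165 in the tamoxifen libraries. Myb was the 1 member whose groups did not overlap, all 3 tamoxifen libraries being lower, where 17.6% of all tested genes did not overlap in either direction. An exact two-sided permutation test gave p = 0.1, the smallest that 3 against 3 allows, and the groups overlapped with scaling by total counts and with the GC correction. Under that correction Gata1 was instead the 1 member without overlap, lower in all 3 tamoxifen libraries, where 17.6% of the 12159 corrected genes did not overlap, so neither count stands above its background. The gap between the groups was narrow, since tamoxifen 2 lay just under oil 3. The means were 5807 ± 767 and 4483 ± 1201 (SD, n = 3 each), a log2 fold change of -0.40 with an interval of -0.98 to 0.17 (limma adjusted p = 0.666). Without tamoxifen 1 it was -0.16, interval -0.39 to 0.075 (limma adjusted p = 0.577). Of its exon bases, 559 are shared with Gm26577 on the other strand, a gene with at most 11.8 normalised counts in a library.

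**Figure D2:**
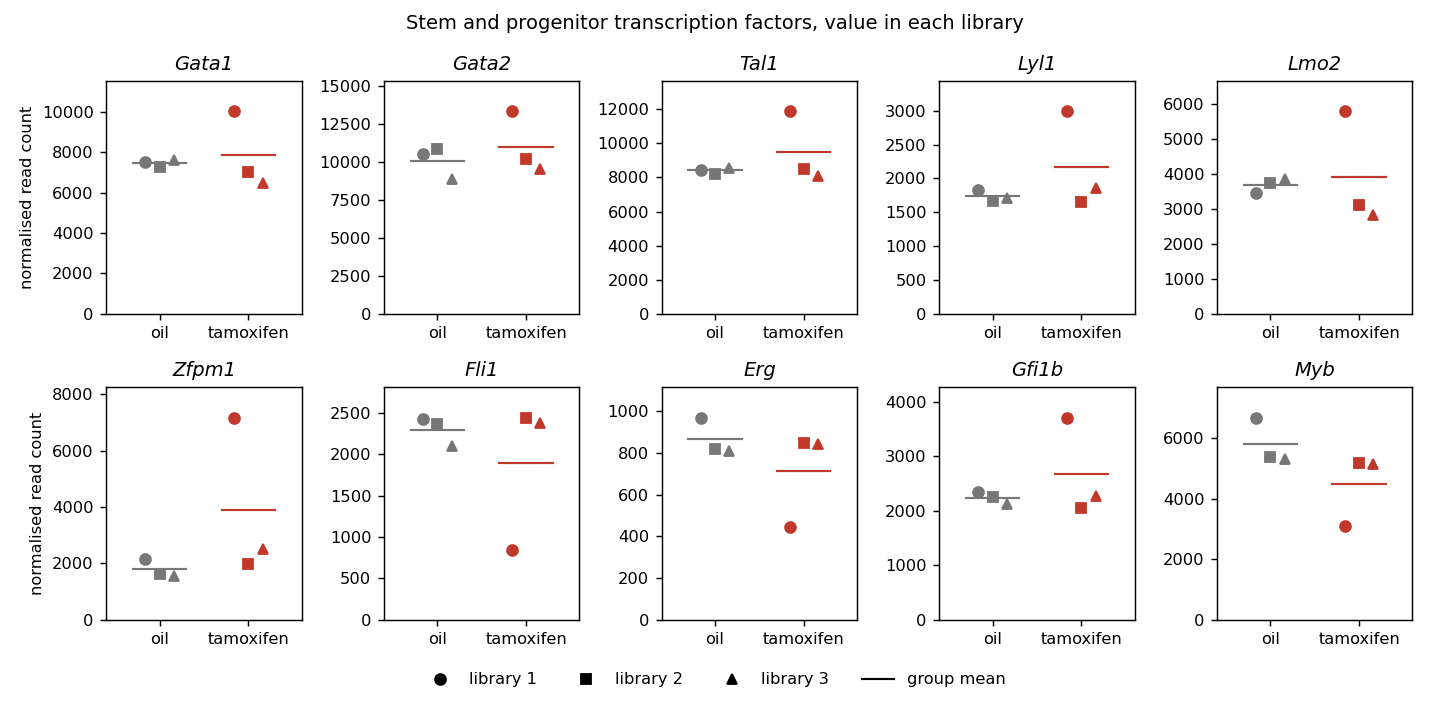
Normalised read count of each gene in each library, with oil libraries in grey, tamoxifen libraries in red, a marker shape for the library number and a line for the group mean, each panel starting at 0. Tamoxifen 1 (red circle) is the highest library in 7 panels and the lowest in those of Fli1, Erg and Myb, while the other tamoxifen libraries lie near the oil libraries.

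Tamoxifen 1 lay outside the range of the other 5 libraries for 10 of 10 members, against 82.7% of all tested genes. It was the highest for 7 and the lowest for 3, and the next most extreme libraries, tamoxifen 2 and 3, lay outside for 3 members each. The 7 genes at which it was highest have transcripts of 52.8% GC (Tal1) to 66.8% GC (Zfpm1). The 3 at which it was lowest are Fli1 at 44.5%, Myb at 47.0% and Erg at 50.8% GC. This was the order over protein-coding genes in general: the median deviation of tamoxifen 1 was -0.37 on the log2 scale for genes of 44% to 48% GC, 0.11 for 48% to 52%, 0.48 for 52% to 56%, 0.84 for 56% to 60% and 1.18 above 60%. The deviations of Gata1 (0.46), Tal1 (0.49) and Gfi1b (0.71) lay near the median of their class. Zfpm1 at 1.86 and Lmo2 at 0.75 lay above theirs, and Fli1 at -1.49, Erg at -0.93, Myb at -0.78, Gata2 at 0.39 and Lyl1 at 0.80 lay below.

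**Figure D3:**
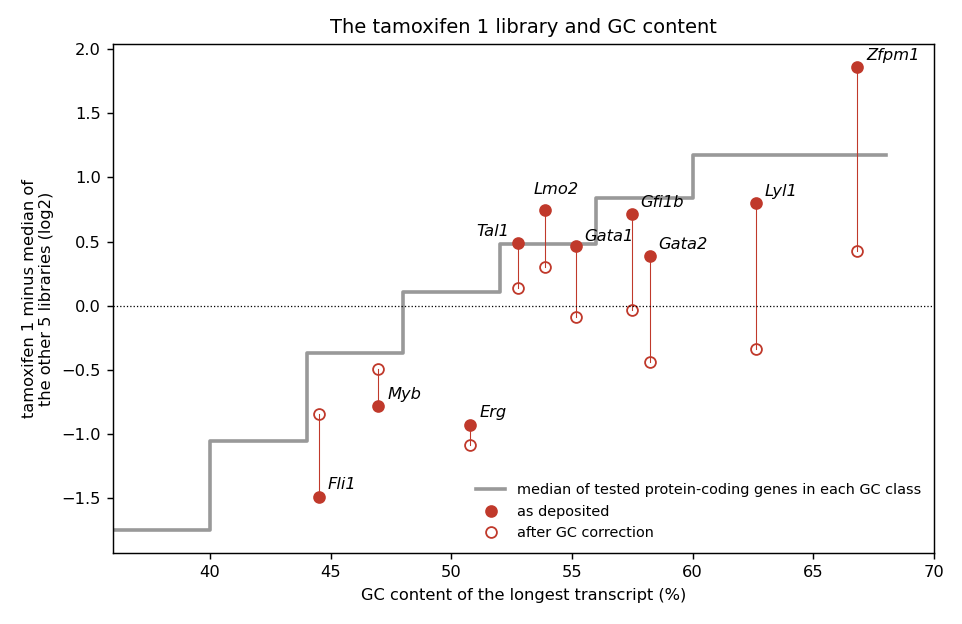
Deviation of tamoxifen 1 from the median of the other 5 libraries, in log2 units, against the GC content of the longest transcript in percent, for the 10 genes as deposited (filled) and after a correction for GC content (open), with a grey line for the median of protein-coding genes in each GC class, the outer classes drawn only to the edge of the plot. Genes of higher GC content lie higher before the correction, and Erg and Fli1 stay lowest after it.

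After a correction for GC content, fitted in each library without the group labels, the deviation of tamoxifen 1 was -0.087 for Gata1, -0.036 for Gfi1b and 0.14 for Tal1. It was 0.43 for Zfpm1 and 0.30 for Lmo2. Erg at -1.08, Fli1 at -0.85 and Myb at -0.49 remained lower in tamoxifen 1 than in the median of the other libraries, while Gata2 at -0.43 and Lyl1 at -0.34 turned from higher to lower, so the library did not return to the level of the others for all genes. With corrected values the group difference was 0.41 for Zfpm1 and 0.044 for Tal1, and negative for the other 8 members, from -0.034 for Gfi1b to -0.38 for Erg. None of the 10 was called (limma adjusted p of 0.665 or more). What sets tamoxifen 1 apart was not tested.

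Without tamoxifen 1 the 5 remaining libraries were close. Their highest value was 1.06 times (Tal1) to 1.61 times (Zfpm1) the lowest, and the coefficient of variation among the 3 oil libraries was 2.16% to 18.6%, with a median of 6.56%, against a median of 5.88% over 6840 genes with an oil mean of at least 500. The members' median log2 fold change was 0.079 with all 6 libraries, 7 above 0 and 3 below, and -0.029 without tamoxifen 1, 3 above 0 and 7 below. Over all tested genes the medians were -0.017 and -0.021, so the members' medians differed little from those of all genes in either fit. In limma 0 of the 10 were called without tamoxifen 1, against 0.333% of all tested genes. Gata1, Lmo2 and Myb were lower in both remaining tamoxifen libraries than in all oil libraries, 3 of 10 members where 29.4% of all tested genes did not overlap. That share is near the background and is no result about the members.

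**Figure D4:**
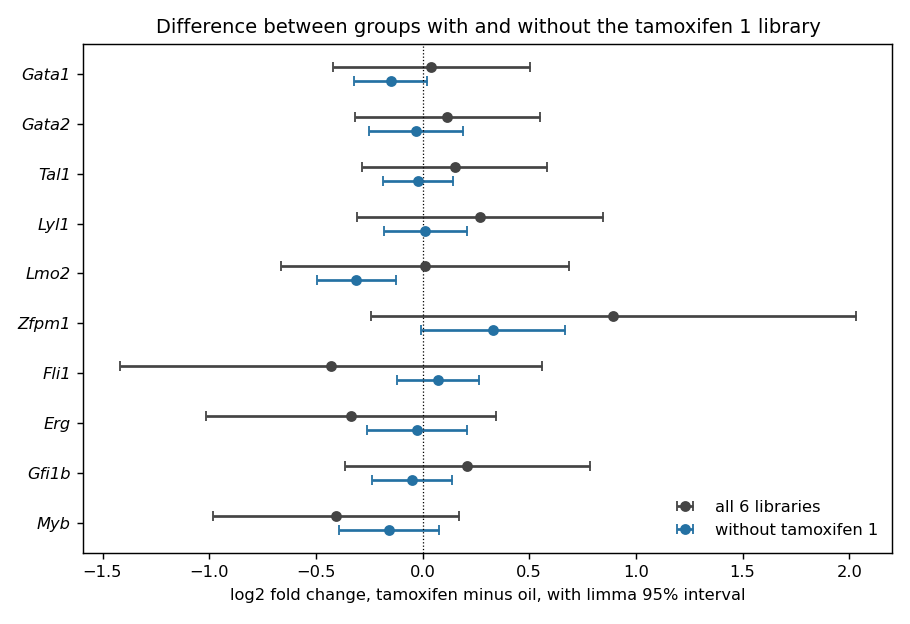
Log2 fold change of each gene, tamoxifen minus oil, with its 95% limma interval, from all 6 libraries (dark) and without tamoxifen 1 (blue). All 10 dark intervals cross 0, the blue ones are shorter, and the 1 blue interval that stays on one side of 0 is that of Lmo2, from -0.50 to -0.12.

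For each member the gene with the nearest pattern over the 6 libraries was found by the root mean square difference of log2 values centred on each gene's mean. Tal1 was nearest to Aimp1 at 0.018, Lyl1 to Trak1 at 0.021 and Gata1 to Tmbim6 at 0.025. Gfi1b was nearest to Pex5 at 0.029, Gata2 to Dido1 at 0.032, Lmo2 to Adprh at 0.037, Erg to Rps27 at 0.040, Fli1 to Rpl17-ps5 at 0.043, Myb to Acadl at 0.045 and Zfpm1 to Znrf1 at 0.10. Zfpm1 thus had no gene as near as the others had. Among the members themselves Lyl1 and Gfi1b were nearest to each other at 0.050, Gata1 and Tal1 at 0.060, and Erg and Myb at 0.075. All these distances include tamoxifen 1, which lay outside the range of the other 5 libraries for each member.

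The proteins that work with these factors were read from lists of partners. Over all tested genes, for reference, 48.4% had a log2 fold change above 0 (median -0.017), and 44.8% without tamoxifen 1 (median -0.021). Of 12 partners of the SCL complex, all tested, 0 passed in limma, 4 were above 0 and 8 below, with a median log2 fold change of -0.035, and 0 passed without tamoxifen 1 (median -0.024). The 3 with the smallest p were Cbfa2t3 (ETO2, a corepressor of the complex) at 0.45, Ssbp2, which stabilises LDB1, at -0.59, and Runx1 at -0.18, each with a limma adjusted p of 0.666. Without tamoxifen 1 these shrank to 0.12, -0.091 and -0.13. Runx1 had 12791, 12361 and 11592 normalised counts in the oil libraries and 9996, 11164 and 11220.1 in the tamoxifen libraries, and its groups did not overlap. That held for 2 of the 12 partners, Runx1 and Cbfa2t2, both lower, against 17.6% of all tested genes. Whether reads of the AE9a transgene, which carries part of RUNX1, count toward Runx1 was not tested.

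Of 16 corepressor subunits bound by FOG1 or GFI1B, 0 passed, 8 were above 0 and 8 below (median -0.0092). Ctbp2, a corepressor of low level here, had the smallest p, with 46.7, 38.6 and 32.5 normalised counts in the oil libraries and 139, 65.7 and 113 in the tamoxifen libraries. Its log2 fold change was 1.36 (limma adjusted p = 0.666) and 1.13 without tamoxifen 1 (limma adjusted p = 0.181). Mta1 at 0.24 and Hdac1 at -0.19, both subunits of the NuRD complex, came next, with 0.12 and -0.20 without tamoxifen 1. Of 7 cofactors of MYB 0 passed, with a median of 0.087 (0.051 without tamoxifen 1). Kmt2a, the MLL histone methyltransferase, was at 0.33, Crebbp, the acetyltransferase CBP that binds MYB, at 0.24 and Taf12 at -0.29 (limma adjusted p = 0.666 for each). Without tamoxifen 1 they were at 0.28, 0.22 and -0.064, so the value of Taf12 rested mostly on that library.

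Of 13 other members of the same families, 10 were tested and 0 passed (5 above 0 and 5 below, median -0.12, and -0.0072 without tamoxifen 1). Lmo1 was listed at 0 in every library. Gfi1, the paralog of Gfi1b, had 4.49, 4.82 and 1.86 normalised counts in the oil libraries and 20.4, 11.1 and 12.7 in the tamoxifen libraries, a log2 fold change of 1.76 (limma adjusted p = 0.666) and 1.52 without tamoxifen 1. Its oil values all lay below 10, the limit of the filter on low values. Gfi1 thus passed that filter only through the tamoxifen libraries, and no change is read from it. Gata3, the GATA factor of T cells, was at -0.34 and Mybl1, a relative of Myb, at -0.64 (limma adjusted p = 0.666 for both), and at -0.39 and -0.22 without tamoxifen 1.

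Known target genes were read in the same way. Of 25 erythroid targets of GATA1, 24 were tested and 0 passed, 15 above 0 and 9 below (median 0.077, and -0.097 without tamoxifen 1). Hba-a1 (alpha globin) was at 0.67 and Alas2, the first enzyme of heme synthesis, at 0.59 (limma adjusted p = 0.666 for both), and at 0.38 and 0.64 without tamoxifen 1. Hba-a1 had 21883, 32731 and 19942 normalised counts in the oil libraries and 57514, 25699.9 and 38645 in the tamoxifen libraries, and its near-identical copy Hba-a2 can share its reads. The summed level of the 6 erythroid marker genes in the table was 33692 to 47287 in the oil and 38618 to 73593 in the tamoxifen libraries, with none of the 6 at 0, and their part in these values was not tested. Of 17 megakaryocyte targets of GATA1 and FLI1, 9 were tested and 0 passed (median -0.067). Itga2b (CD41) was at 1.19 with 158 to 191 normalised counts in the oil libraries and 616, 182 and 531 in the tamoxifen libraries, Vwf at 0.34 and Gp1ba at -0.67 (limma adjusted p = 0.666 for each). Without tamoxifen 1 they were at 0.86, 0.23 and -0.13.

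The 16 mast cell and basophil targets of GATA2 were all tested, and 0 passed with all libraries, 10 above 0 and 6 below (median 0.26). Without tamoxifen 1 the median was 0.51 and 13 were above 0, where 44.8% of all tested genes were above 0. In that fit Cpa3 and Tpsb2, which encode mast cell proteases, were called higher, 2 of 16 genes where 0.333% of all tested genes were called. The list was chosen with earlier results of these data known, so these shares cannot be compared as a test. Cpa3 had 3823, 3992 and 4174 normalised counts in the oil libraries and 4074, 7774 and 9431 in the tamoxifen libraries. Its log2 fold change was 0.74 with all libraries (limma adjusted p = 0.666) and 1.10 without tamoxifen 1 (limma adjusted p = 0.00183). Tpsb2 had 7.19, 16.4 and 13.0 normalised counts in the oil libraries and 46.0, 153 and 148 in the tamoxifen libraries, 3.03 on the log2 scale (limma adjusted p = 0.580) and 3.59 without tamoxifen 1 (limma adjusted p = 0.00277). In oil 1 Tpsb2 lay below 10, the limit of the filter on low values. It needed the tamoxifen libraries to pass that filter, so no change is read from it. Mcpt8, a basophil protease, was at 1.29 and Csf2rb2, an interleukin-3 receptor chain, at 1.02 (limma adjusted p = 0.666 for both), and at 1.46 and 0.97 without tamoxifen 1. Another 3 genes of the list, named after their values were seen, had values below 0 and did not pass. Ms4a2, a chain of the IgE receptor, had 17754, 19301 and 19161 normalised counts in the oil libraries and 2965, 16499 and 14036 in the tamoxifen libraries, without overlap, a log2 fold change of -1.09 (limma adjusted p = 0.666) and -0.30 without tamoxifen 1 (limma adjusted p = 0.258). Srgn was at -0.26, also without overlap, and Il1rl1, the interleukin-33 receptor, at -0.44 with overlap (limma adjusted p = 0.666 for both), and they were at -0.12 and -0.085 without tamoxifen 1. In this list the groups did not overlap for 4 genes with tamoxifen higher and 2 with tamoxifen lower. Over all tested genes 17.6% did not overlap in either direction. Gata2 itself was at -0.031 in the fit without tamoxifen 1, with an interval on both sides of 0. The summed level of 8 mast cell and basophil markers, which include Cpa3, Tpsb2 and Mcpt8, was 58852 to 65155 in the oil and 50833 to 83806 in the tamoxifen libraries, with none at 0. A summed list of 13 macrophage markers was 130.2 to 312 in the oil and 350.1 to 478 in the tamoxifen libraries, and its part in the results was not tested.

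Of 15 stem cell genes bound by these factors, 7 were tested and 0 passed (median 0.016). Hlf, a stem cell transcription factor, was at -0.76 and Adgrg1 (GPR56) at 0.29 (limma adjusted p = 0.666 for both), and without tamoxifen 1 at -0.29 and 0.12. Of 15 MYB targets of myeloid leukemia cells 11 were tested and 0 passed (median 0.11). Elane, the neutrophil elastase gene, had 1.80, 0 and 1.86 normalised counts in the oil libraries and 10.2, 11.1 and 10.003 in the tamoxifen libraries. Its log2 fold change was 2.52 (limma adjusted p = 0.666) and 2.53 without tamoxifen 1. It had no read in oil 2 and few elsewhere. It passed the filter on low values only through the tamoxifen libraries, so no change is read from it. Bcl2, an inhibitor of apoptosis, had 14.4, 6.75 and 9.29 and then 52.4, 20.2 and 55.5, a log2 fold change of 1.90, and Ccnb1 (cyclin B1) was at -0.67 (limma adjusted p = 0.666 for both). Without tamoxifen 1 they were at 1.69 and -0.35. Bcl2 lay below the filter's limit of 10 in oil 2 and 3. It passed the filter only with the tamoxifen libraries, so no change is read from it either.

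**Figure D5:**
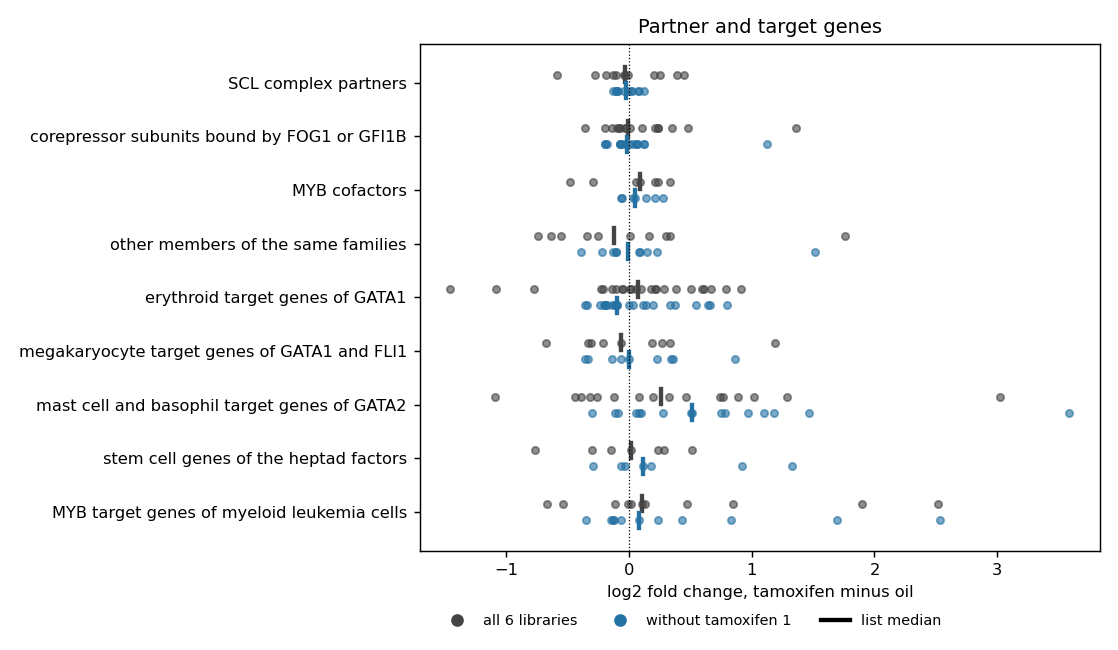
Log2 fold change, tamoxifen minus oil, of each tested gene in 9 lists of partners, relatives and targets of the 10 factors, from all 6 libraries (dark) and without tamoxifen 1 (blue), with a vertical bar for the list median. The medians lie between -0.12 and 0.26 with all libraries, and the mast cell and basophil list has the highest median in both fits, 0.26 and 0.51.

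The labelled cell type was checked against its markers. Kit had 4687 to 10976 normalised counts, Spn 12199 to 19843 and Cd34 200.7 to 1052 over the 6 libraries. Ptprc, which encodes the pan-leukocyte antigen CD45, had 0.898 to 8.08 normalised counts. Mpo, the myeloperoxidase gene of myeloid progenitors, had 0 to 20.2. Both were listed as markers of the sorted leukemia cells and were low or at 0. Cd3e, Ms4a1 and Ly6g, markers of lineages removed by the sort, were listed at 0 in every library. Summed markers of T cells, nearly all from Lat, were 344 to 404 normalised counts in the oil and 424 to 878 in the tamoxifen libraries, and those of B cells 13.5 to 27.8 and 50.02 to 57.5. Neutrophil markers summed to 13.5 to 28.0 and 33.6 to 49.8, dendritic cell markers to 85.3 to 130.2 and 83.9 to 175, megakaryocyte markers to 224 to 262 and 249 to 690.2, and NK cell markers to at most 0.965. The sums of T, B and neutrophil markers were thus higher in every tamoxifen library than in every oil library. Each of these lists had only 1 tested gene, with the other markers at low counts or 0. Lat was at 0.67, Ighm at 1.54 and Mmp8, against the neutrophil sum, at -1.47 (limma adjusted p = 0.666 for each). Without tamoxifen 1 they were at 0.40, 1.63 and -0.30. No change of a cell type is read from these sums, and their part in the members' values was not tested. Of 7 endothelial markers, a cell type that also uses Tal1, Gata2, Lyl1, Lmo2, Fli1 and Erg, Emcn was at 0 in every library, Cdh5, Tie1 and Tek had at most 2.56 normalised counts, Pecam1 at most 8.18 and Kdr at most 8.08, and the list's summed level (935 to 2878) came almost wholly from Egfl7. Hence 6 of these 7 genes were at or near 0 in the libraries where the 10 factors were read.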

How the data were processed

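RNA of sorted GFP+Lin-c-Kit+ splenocytes was sequenced in 6 libraries, 3 labelled oil and 3 labelled tamoxifen, as the labels group them. The authors used STAR and DESeq2 with mm10 per the processing notes, while the annotation and strand setting are not given in the sources used here. The library kit named in the labels is one for tagmenting DNA. The values deposited by the authors are a normalized signal, read counts divided by 1 size factor per library, and dividing by the value of 1 read gave whole reads for 100% of values (tolerance 0.02). Of 55450 rows, 1832 had no gene name (0.0400% to 0.0614% of reads) and were left out, 1402 names were rejoined, and 52048 of 53618 named rows matched GENCODE vM21, which gave coordinates and lengths.

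Genes at 10 or more in at least 3 libraries were tested with limma (version 3.58.1, R 4.3.3, with a mean-variance trend) on log2(value + 1), a scale that understates the change of low genes. Two-sided p-values received Benjamini-Hochberg adjustment over 12298 genes, with 0.05 as the limit. DESeq2 (version 1.42.0) and edgeR (version 4.0.16) were run on recovered reads. Other alternatives were TMM, upper-quartile and total-count (CPM) scaling, other filters and pseudocounts, a replicate block, library weights, each library left out, and a GC correction (loess, span 0.3, 98.9% of tested genes with a GC value). The main limma fit was tested on simulated counts, which held no library like tamoxifen 1, and the GC correction on values with an added GC trend. The other fits were not tested in this way. Reads carry no molecular identifiers, so counts are not independent molecules. Named genes were the 10 members, Usp18, the nearest gene to each member, and the 3 genes of each list with the smallest limma p together with any that passed, and the marker genes of the cell type lists. The members and lists were chosen with earlier results of these data known. The results of 3 genes that this rule would name are not reported here.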

Additional observations from a re-analysis of the deposited data

How the results depend on the processing

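The log2 fold changes of Zfpm1, Erg and Myb kept their sign under every alternative run, and that of Lyl1 under all but the GC correction (-0.12, with or without the replicate block). Scaling by total counts turned Gata1 to -0.0078 and Lmo2 to -0.038, and under it 0 members were without overlap. Under the GC correction it was 1, Gata1 in place of Myb. Library weights gave -0.17 for Gata1, -0.079 for Gata2, -0.028 for Tal1, -0.34 for Lmo2, 0.039 for Fli1 and -0.0066 for Gfi1b, with 1 member (Lmo2) and 782 genes called. The GC correction, with or without the replicate block, gave -0.13 for Gata1, -0.15 for Gata2, -0.13 for Lmo2 and -0.034 for Gfi1b, and without the block 2 genes were called. DESeq2 called 71 genes. The cause of these shifts was not tested.

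With each library left out (limma throughout, DESeq2 throughout, and edgeR, total-count scaling and the GC correction for tamoxifen 1, these last 3 chosen after seeing the data), the log2 fold change ran from -0.15 to 0.18 for Gata1, -0.031 to 0.21 for Gata2, -0.021 to 0.27 for Tal1, -0.31 to 0.26 for Lmo2, -0.69 to 0.11 for Fli1 and -0.050 to 0.41 for Gfi1b. Members called stayed at 0, genes called ran from 0 to 230 and members without overlap from 1 to 3. The list medians ran from -0.013 to 0.065 for the corepressor subunits, -0.097 to 0.20 for the erythroid targets, -0.21 to 0.080 for the megakaryocyte targets and -0.27 to 0.12 for the stem cell genes. The members' changes of sign came without tamoxifen 1, and for Lmo2 also without oil 1 (-0.035). The median of the erythroid targets changed sign without tamoxifen 1, that of the megakaryocyte targets without oil 1, tamoxifen 1 or tamoxifen 3, and those of the corepressor subunits and the stem cell genes without oil 2, oil 3 or tamoxifen 3.

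The replicate numbers did not pair the samples, since deviations of same-numbered libraries correlated at -0.024, 0.061 and -0.15. With the replicate block 0 members and 0 genes were called, the smallest adjusted p being that of Zfpm1 (0.731, limma). The limits are the 3 mice per group and the 1 library that stood apart, which with all 6 libraries left intervals wide enough to hold a change of 0.5 or more on the log2 scale for every member.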
